A study of Homo sapiens with 35 samples.

Results

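Day 6 was compared with day 4 of recovery in RPMI-8226 cells, an established human multiple myeloma line, after a pulse of 750 nM carfilzomib for 1 h. The members are the 5 libraries labelled day 4 and the 5 labelled day 6, chosen by their label alone, which makes 10 of the 35 RNA-sequencing libraries of the series. The remaining 25 libraries came from days 0, 1, 2, 8 and 10. All cells were of 1 line with no engineered allele, and the day 4 and day 6 cells had had the same carfilzomib pulse, so day 4 and day 6 differed in collection time alone as far as the labels state. The subcultures had been split from 1 expanded culture, so the spread between libraries covers culture and library preparation and not separate experiments. Medium was replaced every 48 h and cells were collected just before a change, and cell density was reset on days 6 and 8. Day 6 cells had therefore grown 2 days longer than day 4 cells, and time after carfilzomib and time in culture at an unadjusted density cannot be told apart in this comparison.

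Carfilzomib irreversibly blocks the chymotrypsin-like site of the proteasome, the complex that degrades ubiquitinated proteins. Plasma cells make large amounts of secreted immunoglobulin, and myeloma cells are known for their dependence on protein degradation. The kinases GCN2 and PERK phosphorylate the translation initiation factor eIF2α when amino acids are short or when unfolded proteins fill the endoplasmic reticulum, and this favours translation of ATF4. ATF4 is a transcription factor that binds the C/EBP-ATF response element (CARE) and drives genes for amino acid synthesis, uptake and tRNA charging, together with the stress factors DDIT3, ATF3 and TRIB3. Genes of the G2 and M phases of the cell cycle commonly carry a cell cycle genes homology region (CHR) near the start of transcription, which is bound by the MuvB complexes.

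The CARE sequences of 3 members of the ATF4 group that were higher on day 6 are shown, because this is the element through which ATF4 acts. They were found by searching for TGATGNAA on both strands of RefSeq promoters, which reach from 250 bases before to 50 bases after each gene start in GRCh38.p14. Capitals mark the match, and each window lies before the RefSeq start. Of the 25 members that were higher, 19 had a promoter in the table, and 3 of these held the motif. Over the whole list of 31 members, 24 had a promoter and 4 held the motif, so it was not limited to members that rose. Of all 27305 promoters in that table, 3.67% held it.
ASNS, chr7:97872458-97872487, minus strand: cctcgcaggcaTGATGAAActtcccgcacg
ATF3, chr1:212565205-212565234, plus strand: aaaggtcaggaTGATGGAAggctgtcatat
CHAC1, chr15:40953251-40953280, plus strand, match on the other strand: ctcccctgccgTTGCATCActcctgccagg
The ASNS match began 68 bases before the RefSeq start, and its window lies inside the longer span that GENCODE 44 gives to ASNS. A match is a description of the letters and not evidence of binding.

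The CHR element, TTTGAA on either strand, was found in 30 of the 44 promoters matched to G2 and M phase members (68.2%), and in 15.4% of all promoters of the table. Of the 54 members, 81.5% had a promoter in the table. The windows of the 4 members with the lowest p that held a match before the start are shown with the match in capitals, because the level of these genes fell between the days.
KIF11, chr10:92593090-92593119, plus strand, match on the other strand: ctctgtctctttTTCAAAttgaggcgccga
TOP2A, chr17:40418073-40418102, minus strand: cgagtggtgcctTTTGAAgcctctctagtc
CCNB2, chr15:59105105-59105134, plus strand: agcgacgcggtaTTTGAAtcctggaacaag
CDCA8, chr1:37692481-37692510, plus strand: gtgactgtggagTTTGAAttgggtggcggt
In KIF11, CCNB2 and CDCA8 the match began 28, 29 and 23 bases before the start, and in TOP2A 194 bases before it. The letters CCAAT, also on either strand, were found in 30 of the same 44 promoters (68.2%) and in 35.7% of all promoters of the table. Shares of the other motifs searched are not given. Shares over the transcripts that rose or fell are left out too, because only 73.7% and 75.7% of these were matched to a promoter. Of all tested transcripts 77.5% were matched.

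The files hold estimated counts per gene symbol and transcript biotype, and only the entries of the protein-coding biotype were used. Day 4 libraries held 6791180 to 8231160 counts and day 6 libraries 7823940 to 9744770. The protein-coding share was 81.4% to 83.3% on day 4 and 79.1% to 81.2% on day 6, and the share of retained introns was 5.22% to 6.27% and 6.16% to 7.11%. The scaling factors were 1.01 to 1.04 on day 4 and 0.971 to 0.996 on day 6, so both the protein-coding share and the factors separated the days without overlap. Counts from fits without these factors are given below, and the part of the protein-coding share in the results was not tested. Levels are given as CPM, the protein-coding counts of a library scaled to a common total and by these factors, and the test is the edgeR quasi-likelihood test with Benjamini–Hochberg adjustment over 17999 transcripts, whose adjusted p is called Q. Mean ± SD is over 5 libraries throughout, and differences are on the log2 scale with their standard error. The median log2 fold change of all transcripts tested was 0.

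The cells still expressed plasma cell genes on both days. The summed level of the 15 plasma cell markers tested, of which 14 reached 1 CPM, was 6614 to 7354 CPM on day 4 and 7640 to 8656 CPM on day 6. IRF4, a transcription factor on which myeloma cells depend, rose from 347 ± 36.0 to 497 ± 52.4 CPM (log2 0.52 ± 0.06, Q = 2e-07). SDC1, which encodes the surface proteoglycan CD138, fell from 281 ± 22.5 to 235 ± 16.04 CPM (log2 −0.26 ± 0.06, Q = 0.000832). Of the 27 tested markers of other cell types, 1 was higher at Q ≤ 0.05 (3.70%, below the 6.09% of all transcripts) and none was lower. The 1 was KRT8, with 26.6 ± 2.16 and 33.5 ± 3.49 CPM. KRT8 no longer passed in 7 of the 10 fits that left out 1 library. The markers CD3D, MPO, HBB and VWF, picked with values known, had no count in any of the 10 libraries. Other markers of this list were expressed, as 11 of the 27 had a mean of at least 1 CPM. The summed level of the 27 was 476 to 523 CPM on day 4 and 497 to 546 CPM on day 6, most of it outside KRT8.

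At Q ≤ 0.05 and a fold change above 2, 113 transcripts differed between the days (0.628% of those tested), 76 higher on day 6 (0.422%) and 37 lower (0.206%). Without scaling factors the split was 60 higher and 50 lower. At Q ≤ 0.05 alone, the rule used for members of lists, 1096 were higher (6.09%) and 1076 lower (5.98%). Without scaling factors these counts were 723 and 1765, and with DESeq2 1147 and 1414. The 5 libraries of one day lay entirely above the 5 of the other for 1650 transcripts (9.17%), and for 74 of the 113. The changes between the days were thus mostly smaller than 2-fold. Among steps between consecutive time points, 3679 transcripts passed this threshold from day 0 to 1, 1850 from day 1 to 2, 557 from day 2 to 4, 113 between the days compared here, 23 from day 6 to 8 and 122 from day 8 to 10.

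**Figure D1:**
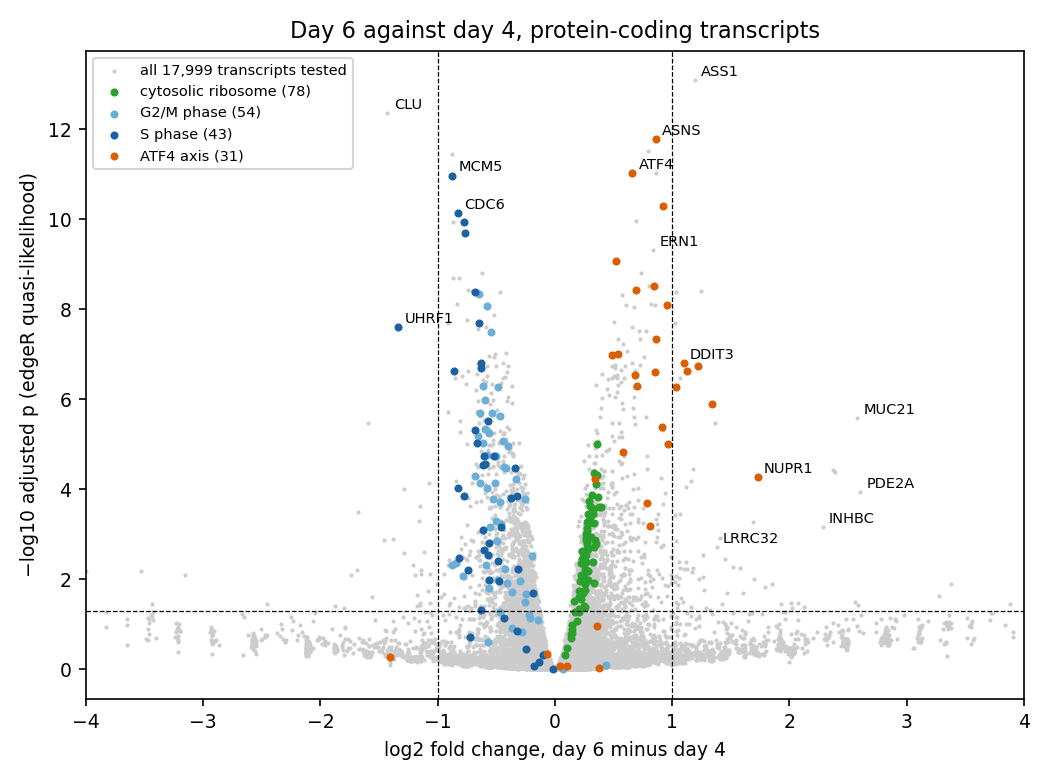
Each point is 1 protein-coding transcript, with the log2 fold change of day 6 minus day 4 on the x axis and −log10 of the adjusted p on the y axis. Dashed lines mark Q = 0.05 and a 2-fold change, 21 transcripts beyond a log2 fold change of 4 are not drawn, and ATF4 group members (orange) lie mostly to the right, S and G2/M phase members (blues) to the left, and ribosomal proteins (green) in a narrow band on the right.

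Most of the listed ATF4 target genes were higher on day 6. Of 31 members tested, 25 were higher, none was lower and 6 did not pass at Q ≤ 0.05, with a median log2 fold change of 0.79. For 23 members the libraries of day 6 lay entirely above those of day 4, where 4.71% of all transcripts did. The members that did not pass were FGF21, GDF15, PSPH, VLDLR, ALDH18A1 and ATF5, and of these FGF21 and GDF15 had almost no counts.

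ATF4 itself (chr22:39519695-39522683, GRCh38, plus strand) had 546, 501, 566, 477 and 508 CPM in the day 4 libraries and 773, 852, 817, 783 and 882 CPM on day 6. The days did not overlap, and the rise of log2 0.66 ± 0.05 (Q = 9.45e-12) was among the 5 with the lowest p of those that rose. The kinase genes upstream rose less. EIF2AK4, which encodes GCN2, went from 165 ± 12.3 to 192 ± 13.4 CPM (log2 0.22 ± 0.06, Q = 0.00671) with overlapping libraries, and EIF2AK3, which encodes PERK, from 45.3 ± 3.54 to 55.3 ± 2.37 CPM (log2 0.29 ± 0.07, Q = 0.00196).

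Several stress factors of the group rose by more than 2-fold. DDIT3, the pro-apoptotic factor CHOP (chr12:57516588-57521737), had 13.7, 13.9, 17.5, 13.2 and 20.5 CPM on day 4 and 28.6, 37.1, 35.9, 34.2 and 33.0 CPM on day 6. Every day 6 library was above every day 4 library (log2 1.10 ± 0.14, Q = 1.54e-07). ATF3, a stress-induced repressor of the same bZIP family, rose from 13.3 ± 2.79 to 27.4 ± 1.36 CPM (log2 1.04 ± 0.14, Q = 5.28e-07). CHAC1, which degrades glutathione, rose from 9.53 ± 0.571 to 22.2 ± 2.13 CPM (log2 1.22 ± 0.15, Q = 1.77e-07). ATF3 and CHAC1 carry the CARE letters printed above. NUPR1, a small stress-induced chromatin protein, showed the largest rise of the group, with 3.03, 8.83, 4.17, 2.85 and 3.63 CPM on day 4 and 16.6, 13.1, 19.7, 13.1 and 12.6 CPM on day 6 (log2 1.73 ± 0.30, Q = 5.43e-05). Replicate 2 of day 4 stood above the other day 4 libraries and still below all of day 6.

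Several enzymes of amino acid synthesis in the group rose as well, while PSPH and ALDH18A1 did not pass. ASNS, asparagine synthetase (chr7:97851677-97872542, minus strand), had 183, 181, 216, 168 and 190 CPM on day 4 and 309, 329, 345, 328 and 395 CPM on day 6, without overlap (log2 0.86 ± 0.06, Q = 1.63e-12). CTH, the last enzyme of cysteine synthesis from methionine, rose from 16.4 ± 4.00 to 35.8 ± 4.74 CPM (log2 1.13 ± 0.14, Q = 2.33e-07). PSAT1 and SHMT2, which act in serine synthesis and in the conversion of serine to glycine, rose by log2 0.68 ± 0.09 and 0.58 ± 0.09. PHGDH, the first enzyme of serine synthesis, rose by log2 0.81 ± 0.17 (Q = 0.000659) although its libraries overlapped.

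ASS1, argininosuccinate synthase of arginine synthesis (chr9:130444961-130501274, plus strand), is no member of that list and had the lowest p of all transcripts. Its levels were 522, 481, 567, 402 and 512 CPM on day 4 and 975, 1157, 1115, 1061 and 1374 CPM on day 6 (log2 1.19 ± 0.08, Q = 8.08e-14). The lowest day 6 library was above the highest day 4 library. KIF21B, a kinesin of the microtubule plus end, rose from 250 ± 23.9 to 456 ± 30.3 CPM (log2 0.87 ± 0.07, Q = 9.45e-12). LTF, which encodes the iron-binding protein lactoferrin, rose from 123 ± 8.97 to 214 ± 18.6 CPM (log2 0.79 ± 0.06, Q = 3.04e-12).

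**Figure D2:**
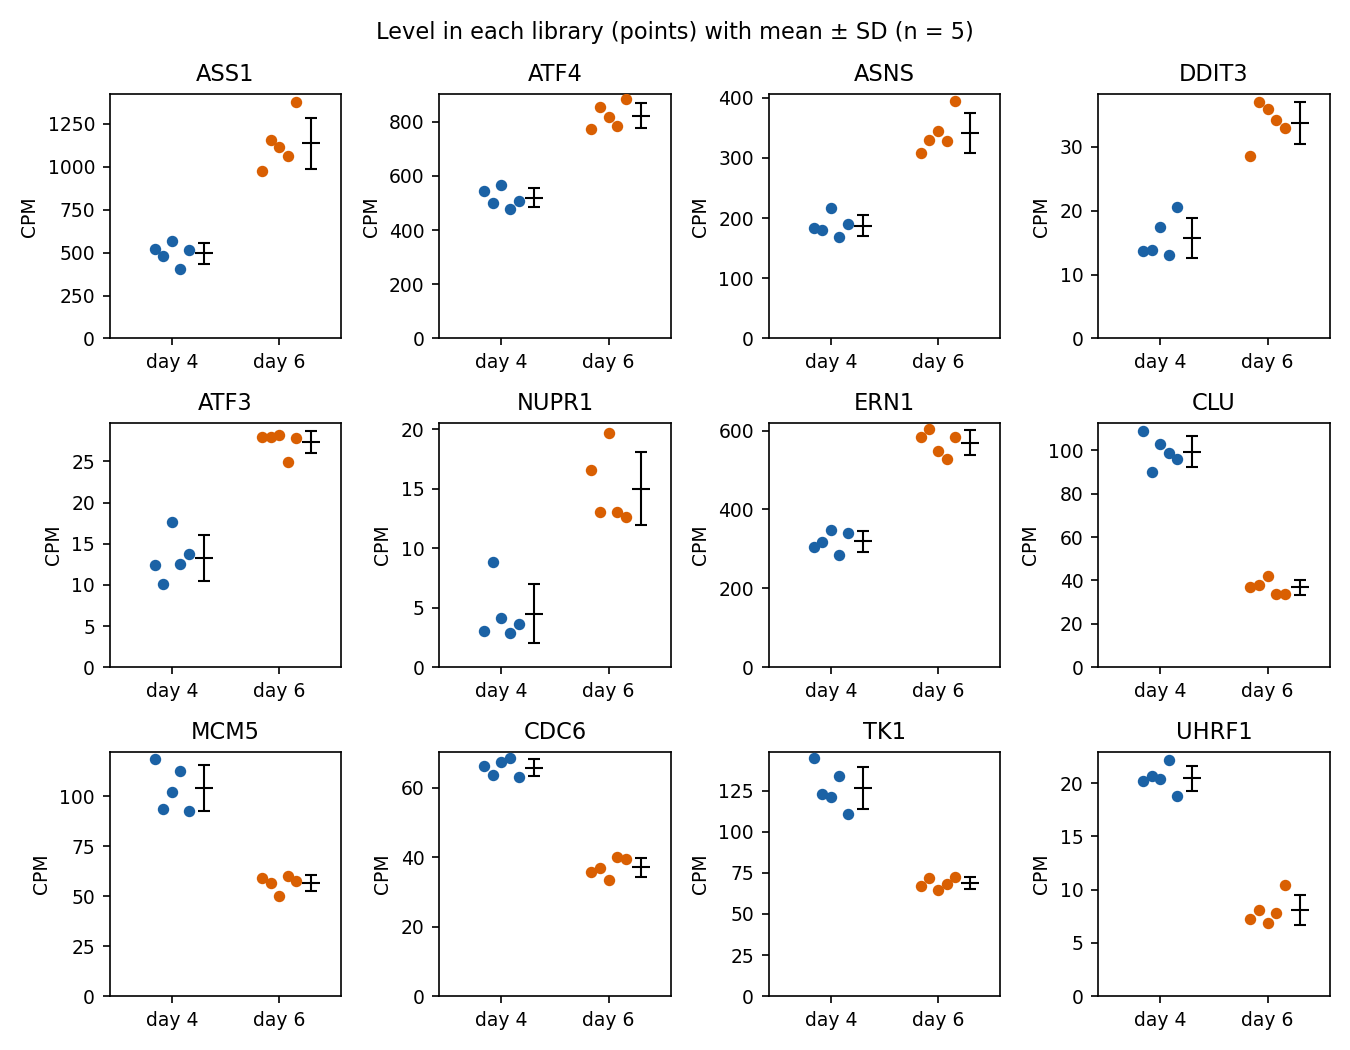
Each panel shows 1 transcript in CPM from 0, with the 5 day 4 libraries (blue) and the 5 day 6 libraries (orange) as points and the mean ± SD beside them. ASS1, ATF4, ASNS, DDIT3, ATF3, NUPR1 and ERN1 were higher on day 6 and CLU, MCM5, CDC6, TK1 and UHRF1 lower, and in each panel the days do not overlap.

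Transcripts of amino acid transporters and tRNA synthetases were higher in part. Of 16 transporters tested, 9 were higher (56.25%), 1 was lower (6.25%) and 6 did not pass. Over all transcripts 6.09% were higher and 5.98% lower, so the single fall was near that share. SLC6A9, the glycine transporter GLYT1, rose most, from 23.0 ± 3.60 to 47.0 ± 6.25 CPM (log2 1.03 ± 0.12, Q = 2.01e-08). SLC3A2 and SLC7A5, the chains of the large neutral amino acid exchanger, rose by log2 0.73 ± 0.07 and 0.49 ± 0.06, and SLC1A5, a glutamine carrier, by log2 0.51 ± 0.06. SLC7A11, the cystine carrier, rose from 55.8 ± 10.3 to 89.4 ± 5.28 CPM (log2 0.68 ± 0.09, Q = 2.33e-07). SLC38A5 was the member that fell, from 211 ± 17.8 to 177 ± 15.1 CPM with overlapping libraries (log2 −0.25 ± 0.06, Q = 0.00215).

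Of the 20 cytosolic tRNA synthetases, 13 were higher (65%), 1 was lower and 6 did not pass, with a median log2 fold change of 0.24. The single fall (5%) was near the share of all transcripts (5.98%). SARS, the seryl synthetase, rose from 94.7 ± 11.1 to 151 ± 11.9 CPM (log2 0.68 ± 0.07, Q = 8.88e-09), WARS, the tryptophanyl enzyme, from 93.4 ± 12.8 to 148 ± 10.5 CPM, and CARS, the cysteinyl enzyme, from 75.9 ± 10.7 to 106 ± 7.96 CPM. FARSA, a subunit of the phenylalanyl enzyme, fell from 110 ± 4.23 to 96.3 ± 5.40 CPM (log2 −0.19 ± 0.06, Q = 0.0265), and RARS, HARS, KARS, VARS, LARS and FARSB did not pass.

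The cell cycle genes were lower on day 6. In the S phase list 35 of 43 members were lower, none was higher and 8 did not pass, with a median log2 fold change of −0.60. In 30 of them the day 6 libraries lay entirely below those of day 4, where 4.46% of all transcripts did. Of 54 members of the G2/M list, 44 were lower, none was higher and 10 did not pass, with a median of −0.49 and 39 without overlap.

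Among genes of replication licensing and initiation, MCM5, a subunit of the replicative helicase (chr22:35400134-35425431), had 119, 93.6, 102, 112 and 92.5 CPM on day 4 and 58.8, 56.7, 49.99, 59.9 and 57.6 CPM on day 6. Each day 6 library was below each day 4 library (log2 −0.87 ± 0.07, Q = 1.07e-11). CDC6, which loads that helicase, fell from 65.8 ± 2.36 to 37.1 ± 2.71 CPM (log2 −0.83 ± 0.07, Q = 7.33e-11). TIMELESS, of the fork protection complex and on neither list, fell from 79.7 ± 7.23 to 43.6 ± 5.12 CPM (log2 −0.87 ± 0.08, Q = 1.12e-10). UHRF1, which maintains DNA methylation through replication (chr19:4903080-4962154), had 20.2, 20.7, 20.4, 22.2 and 18.8 CPM on day 4 and 7.29, 8.05, 6.88, 7.78 and 10.5 CPM on day 6. It was the only member of either cell cycle list that passed the 2-fold threshold (log2 −1.33 ± 0.15, Q = 2.5e-08).

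Among genes of nucleotide synthesis, TK1, thymidine kinase and also on neither list, fell from 127 ± 12.96 to 68.9 ± 3.47 CPM (log2 −0.88 ± 0.07, Q = 3.56e-12). TYMS, thymidylate synthase, fell from 69.0 ± 4.87 to 37.8 ± 6.11 CPM, and RRM2 and RRM1, the subunits of ribonucleotide reductase, from 114 ± 2.61 to 66.4 ± 6.63 and from 84.6 ± 1.82 to 54.7 ± 7.70 CPM. PCNA, the sliding clamp, fell from 98.4 ± 9.69 to 62.9 ± 6.07 CPM. In each of these 5 the libraries of the days did not overlap.

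Among mitotic genes, AURKA, a spindle pole kinase, fell from 30.6 ± 4.42 to 19.1 ± 2.44 CPM (log2 −0.68 ± 0.12, Q = 5.02e-05), and CENPF, a kinetochore protein, from 87.6 ± 7.99 to 57.1 ± 6.92 CPM. MKI67, the proliferation marker Ki-67, fell from 112 ± 3.45 to 80.9 ± 9.74 CPM (log2 −0.46 ± 0.10, Q = 0.00059), and CDK1, the mitotic kinase, from 50.2 ± 2.64 to 36.4 ± 2.30 CPM. The genes whose CHR windows are printed above fell by similar amounts, KIF11 by log2 0.61 ± 0.08, TOP2A by 0.49 ± 0.06, CCNB2 by 0.54 ± 0.08 and CDCA8 by 0.47 ± 0.07. CDCA3 fell most by fold, from 6.70 ± 0.590 to 3.61 ± 0.979 CPM, but its protein-coding entry held only 38.4% of its counts on day 4 and 31.1% on day 6. In bulk RNA, fewer cells in a phase and less RNA per cell cannot be told apart.

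**Figure D3:**
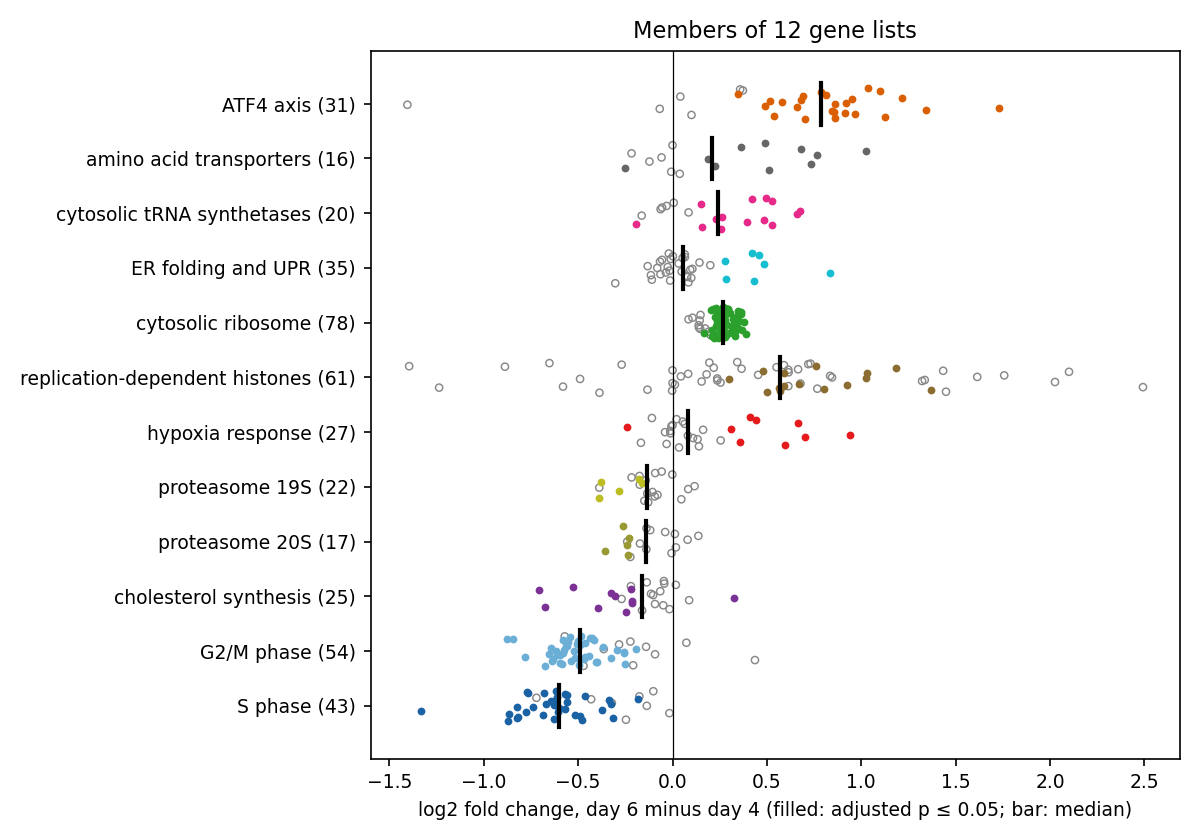
Each point is 1 member of a list, placed by its log2 fold change of day 6 minus day 4, filled where Q ≤ 0.05 and open otherwise, with a bar at the median of the list and the number of members in parentheses. The medians run from −0.60 for S phase to 0.79 for the ATF4 axis, and the 78 ribosomal proteins lie in a narrow range from 0.08 to 0.39.

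The cytosolic ribosomal proteins rose together by a small amount. Of 78 members, 68 were higher, none was lower and 10 did not pass, with a median log2 fold change of 0.27. All 78 fold changes were positive, from 0.08 for RPSA to 0.39 for RPL34, which went from 360 ± 25.4 to 472 ± 42.1 CPM (Q = 0.000244). Without scaling factors 59 were higher. The summed level of the 78 members was 95667 to 102729 CPM on day 4 and 112430 to 123378 CPM on day 6, so the days did not overlap. The share of counts in the 10 most abundant entries moved with them, 10.7% to 11.3% on day 4 and 11.6% to 12.5% on day 6, and its part in this result was not tested. Ribosomal protein genes have many processed copies, and how the estimates were divided among them is uncertain.

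Some histone entries of the replication-dependent families rose. Of 61 tested, 15 were higher, none was lower and 46 did not pass. HIST1H4E, a histone H4 gene, rose from 4.90 ± 1.36 to 12.7 ± 2.65 CPM (log2 1.37 ± 0.20, Q = 3.38e-06), HIST1H2AC, an H2A gene, from 99.6 ± 20.2 to 203 ± 58.4 CPM, and HIST2H2BF, an H2B gene, from 5.87 ± 1.51 to 13.3 ± 1.92 CPM. HIST1H2BK rose least, by log2 0.30 ± 0.09. These genes are near-identical copies whose main transcripts lack a poly(A) tail, so the division of reads among them is uncertain.

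Genes of the sterol pathway were lower in part. Of 25 genes of cholesterol synthesis and uptake, 10 were lower (40%, against 5.98% of all transcripts), 1 was higher and 14 did not pass. The single rise (4%) was below the share of all transcripts (6.09%). ACAT2, which makes acetoacetyl-CoA, fell from 29.6 ± 2.98 to 18.5 ± 2.35 CPM without overlap (log2 −0.68 ± 0.11, Q = 2.74e-05). STARD4, a cholesterol carrier, rose by log2 0.33 ± 0.10 (Q = 0.027). The number of lower members ranged from 4, without replicate 4 of day 4, to 12, without replicate 5 of day 6.

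The unfolded protein response of the endoplasmic reticulum was split. ERN1, the sensor IRE1α (chr17:64039080-64130819), had 305, 317, 347, 284 and 341 CPM on day 4 and 584, 604, 548, 527 and 585 CPM on day 6, without overlap (log2 0.84 ± 0.08, Q = 4.79e-10). The 6 other members that were higher rose by less, among them HERPUD1 (log2 0.48 ± 0.06) and SEL1L (log2 0.46 ± 0.06), which act in the degradation of misfolded proteins. The other 28 of 35 members did not pass, including the chaperone HSPA5 with 1437 ± 83.9 and 1524 ± 30.3 CPM (Q = 0.305), DNAJC3 with 104 ± 5.63 and 104 ± 3.96 CPM (Q = 0.985) and the transcription factor XBP1 with 414 ± 12.8 and 391 ± 25.2 CPM (Q = 0.394).

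Subunits of the proteasome, the target of the drug, were lower in part. In the 19S regulatory particle 5 of 22 were lower and none was higher, and in the 20S core with its immunoproteasome subunits 5 of 17 were lower and none was higher. The 19S count ranged from 3, without replicate 3 of day 4, to 7, without replicate 5 of day 4, and the 20S count from 2, without replicate 1 of day 4, to 10, without replicate 5 of day 6. Without scaling factors the counts were 9 and 11. PSMD1, a base scaffold subunit, fell from 86.3 ± 5.34 to 65.9 ± 3.91 CPM (log2 −0.39 ± 0.07, Q = 0.000175), and PSMB9, an immunoproteasome subunit, from 27.5 ± 2.16 to 21.5 ± 1.55 CPM (log2 −0.36 ± 0.09, Q = 0.00595). PSMB5, which holds the site that carfilzomib binds, had 59.9 ± 4.28 and 63.4 ± 2.97 CPM and did not pass (Q = 0.534). Among cytosolic chaperones 4 of 23 were lower, with AHSA1, a co-chaperone of HSP90, at 78.4 ± 6.96 and 60.2 ± 5.40 CPM (Q = 0.000488). The segregase VCP and its cofactor NPLOC4 did not pass, with 102 ± 4.86 and 89.6 ± 9.70 CPM (Q = 0.0783) and 127 ± 4.82 and 121 ± 7.87 CPM (Q = 0.493).

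Some falls and rises moved with the division of reads between biotypes of 1 gene. AUP1 (chr2:74526645-74529760), a factor of lipid droplets and protein degradation, had 33.3, 18.1, 57.6, 27.9 and 20.0 CPM in its protein-coding entry on day 4 and 14.3, 9.11, 13.8, 0 and 10.1 CPM on day 6 (log2 −1.74 ± 0.46, Q = 0.00796). With the counts of all its biotypes summed, its mean was 192 CPM on both days, and the protein-coding entry held 16.7% and 4.98% of them. UFD1L, another cofactor of VCP, fell from 13.2 ± 0.883 to 9.42 ± 1.07 CPM in the protein-coding entry (log2 −0.49 ± 0.12, Q = 0.00409), against 22.8 and 23.5 CPM over all biotypes. ORC6, a subunit of the origin recognition complex, fell by log2 1.14 ± 0.29 in an entry that held 32.8% and 17.8% of its counts, and it did not pass with the biotypes summed. Over all 95 named transcripts, 89 kept their side of the Q threshold with the biotypes summed, whatever their fold change. The 95 include transcripts that did not pass in the first place, such as HSPA5. Of the 113 calls, which also had to pass the fold threshold, only 70 were called with the biotypes summed.

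Among calls with a mean of at least 1 CPM and no overlap between the days, the largest rises were in transcripts of low level. PDE2A, a phosphodiesterase stimulated by cGMP, had 1.12, 0.473, 0.718, 0.792 and 0 CPM on day 4 and 3.71, 2.89, 4.59, 3.38 and 5.03 CPM on day 6 (log2 2.60 ± 0.47, Q = 0.000117). MUC21, a transmembrane mucin, rose from 0.644 ± 0.592 to 4.02 ± 0.750 CPM (log2 2.58 ± 0.37, Q = 2.62e-06), and INHBC, an inhibin β chain, from 0.636 ± 0.180 to 3.16 ± 0.316 CPM (log2 2.29 ± 0.48, Q = 0.000684). KLHDC8B, a kelch protein, rose from 1.06 ± 0.651 to 5.51 ± 1.65 CPM, while its protein-coding entry held 46.5% of its counts on day 4 and 81.3% on day 6, and all its biotypes had 2.24 and 6.75 CPM. The same share went from 26.7% to 49.5% for TPD52L1, with 1.91 and 3.19 CPM over all biotypes, and from 39.3% to 63.9% for AGER, with 7.45 and 12.4 CPM. LRRC32, which presents latent TGF-β at the cell surface, rose from 3.69 ± 1.04 to 9.61 ± 2.08 CPM (log2 1.38 ± 0.31, Q = 0.00191). CACNA1F, CBY3, TPD52L1, ZNF404 and AGER made up the rest of the 12 largest rises, with log2 fold changes from 1.45 to 2.39, next to NUPR1 and HIST1H4E.

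CLU, the extracellular chaperone clusterin, had the lowest p of the falls. It had 109, 90.0, 103, 98.9 and 95.8 CPM on day 4 and 37.0, 38.1, 42.1, 33.9 and 33.6 CPM on day 6 (log2 −1.43 ± 0.10, Q = 4.37e-13). Every day 6 library was below every day 4 library. OLFML2B, a secreted olfactomedin-domain protein, fell from 6.67 ± 0.645 to 2.19 ± 0.536 CPM (log2 −1.60 ± 0.23, Q = 3.33e-06), SECTM1 from 3.93 ± 0.867 to 1.24 ± 0.868 CPM and TNFRSF8, the receptor CD30, from 8.00 ± 1.36 to 3.54 ± 1.48 CPM. The 12 largest falls were taken among calls with a mean of at least 1 CPM and no overlap between the days. RP11-73M18.2, RTP4, COCH, C2CD4A and POLE2, a subunit of DNA polymerase ε, completed these 12 with AUP1, ORC6 and UHRF1. The protein-coding entry of POLE2 held 67.9% of its counts on day 4 and 42.4% on day 6, with 7.94 and 4.80 CPM over all biotypes. That share also fell for COCH, from 94.5% to 75.6%, and for TNFRSF8, from 98.8% to 82.6%. Log2 fold changes ran from −1.74 to −1.14 over all 12. Falls outside this rule, such as FOS with log2 −1.29 and overlapping libraries, are not among them.

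Genes of the cell death machinery were higher in part. In the BCL2 family 6 of 16 members were higher (37.5%, against 6.09% of all transcripts). The 1 that was lower (6.25%) was near the share of all transcripts (5.98%). PMAIP1, which encodes the BH3-only protein NOXA, rose from 25.6 ± 3.85 to 43.9 ± 2.87 CPM (log2 0.78 ± 0.11, Q = 2.46e-06), and BBC3, which encodes PUMA, from 22.0 ± 3.04 to 35.3 ± 3.81 CPM. The survival gene MCL1 rose by log2 0.25 ± 0.05 (Q = 0.000182), while BCL2L1, which encodes BCL-XL, fell from 89.6 ± 7.71 to 66.5 ± 2.21 CPM (log2 −0.43 ± 0.07, Q = 8.53e-06).

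Placed within the course, the 2 days differ in where each group had come from. The mean log2 CPM of 30 ATF4 group members was 6.62 ± 0.06 before the pulse, on day 0, and 4.36 ± 0.04 at its lowest, on day 2. On days 4, 6, 8 and 10 this mean was 5.30 ± 0.10, 6.04 ± 0.08, 5.46 ± 0.15 and 5.94 ± 0.07, in that order. ASS1 followed the same order, with 2222 ± 125 CPM before the pulse, 213 ± 7.14 CPM on day 2, and 497 ± 61.3, 1136 ± 149, 623 ± 80.6 and 1106 ± 90.3 CPM on the 4 later days. The S phase mean was highest on day 2, at 5.73 ± 0.04, and then 5.05 ± 0.05, 4.51 ± 0.13, 4.59 ± 0.13 and 4.81 ± 0.14 on days 4, 6, 8 and 10, against 4.16 ± 0.08 before the pulse. The ribosomal protein mean was 9.61 ± 0.11 on day 2, 10.0 ± 0.04 on day 4 and 10.3 ± 0.06 on day 6, and its day 6 libraries overlapped those of day 0. CLU went from 2.04 ± 1.20 CPM before the pulse to 661 ± 25.5 CPM 1 day later, and every later day was lower than the one before it, down to 6.17 ± 1.42 CPM on day 10. These are descriptions of shared libraries and no test was made of them.

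**Figure D4:**
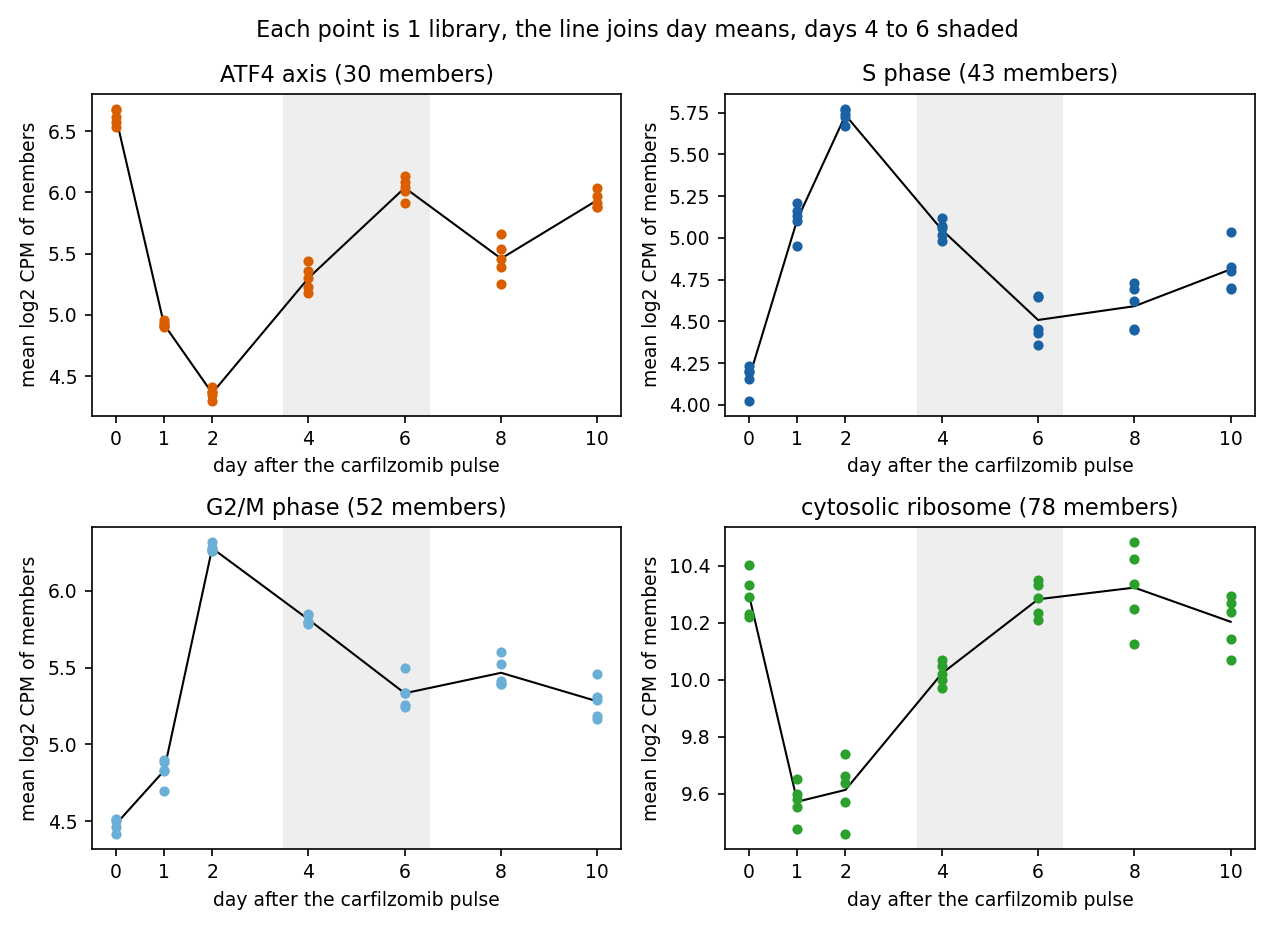
Each point is 1 library and the line joins the day means, with the mean log2 CPM of the members of a list on the y axis, the day after the pulse on the x axis, and days 4 to 6 shaded. The ATF4 axis is lower on days 4 and 8 than on days 6 and 10, S and G2/M phase peak on day 2 and are lower on day 6 than on day 4, and ribosomal proteins rise from day 4 to day 6.

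The change from day 4 to 6 was tested against the change from day 8 to 10, a later interval of equal length that shares no library with it. No such test was made against the step from day 2 to 4. Over that step the ribosomal protein, S phase and ATF4 group means moved in the same direction as from day 4 to 6. At Q ≤ 0.05 the changes differed for 2033 transcripts (11.3%), 997 more positive from day 4 to 6 (5.54%) and 1036 more negative (5.76%). Of the 113 transcripts past the 2-fold threshold, 49 differed. These 113 were chosen by their change from day 4 to 6, which is part of the tested difference, so this count is a description. The cultures of days 8 and 10 had been reset in density and those of days 4 and 6 had not, so the interval and the density history cannot be told apart in this test.

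Most ribosomal proteins and S phase genes differed between the intervals. For 75 of 78 ribosomal proteins the change was more positive from day 4 to 6. From day 8 to 10 their median fold change was −0.12, and 3 of the 78 were lower at Q ≤ 0.05. For 33 of 43 S phase members it was more negative from day 4 to 6, and 15 of the 43 were higher on day 10 than on day 8, as were 5.08% of all transcripts. MCM5 fell by log2 0.87 in the first interval and rose by 0.42 in the second, a difference of −1.29 (Q = 7.82e-12), and CDC6 differed by −1.22 (Q = 4.58e-11). Among G2/M members the changes differed for 15 of 54, and 12 of the 54 were also lower on day 10 than on day 8, as were 4.97% of all transcripts.

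The ATF4 group rose in both intervals, with 25 of 31 members higher on day 6 than on day 4 and 21 of 31 higher on day 10 than on day 8, at medians of 0.79 and 0.50. The 1 member that was lower on day 10 than on day 8 was ATF3 (log2 −0.42 ± 0.14, Q = 0.0439). The change was more positive from day 4 to 6 for 8 members, which included ATF4 (difference 0.48, Q = 2.06e-05), DDIT3 (0.93, Q = 0.000663), ATF3 (1.45, Q = 1.2e-06), CHAC1 (1.06, Q = 0.000463) and NUPR1 (2.26, Q = 0.000233). It was more negative for 3, among them PSAT1 (−0.57, Q = 0.00133). ASNS rose by log2 0.86 and 0.98 and KIF21B by 0.87 and 0.82, with differences of −0.12 ± 0.09 (Q = 0.5) and 0.05 ± 0.10 (Q = 0.92). For the unfolded protein response 14 of 35 members were more negative from day 4 to 6, and 25 of 35 were higher on day 10 than on day 8, where HSPA5 rose by log2 0.34.

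**Figure D5:**
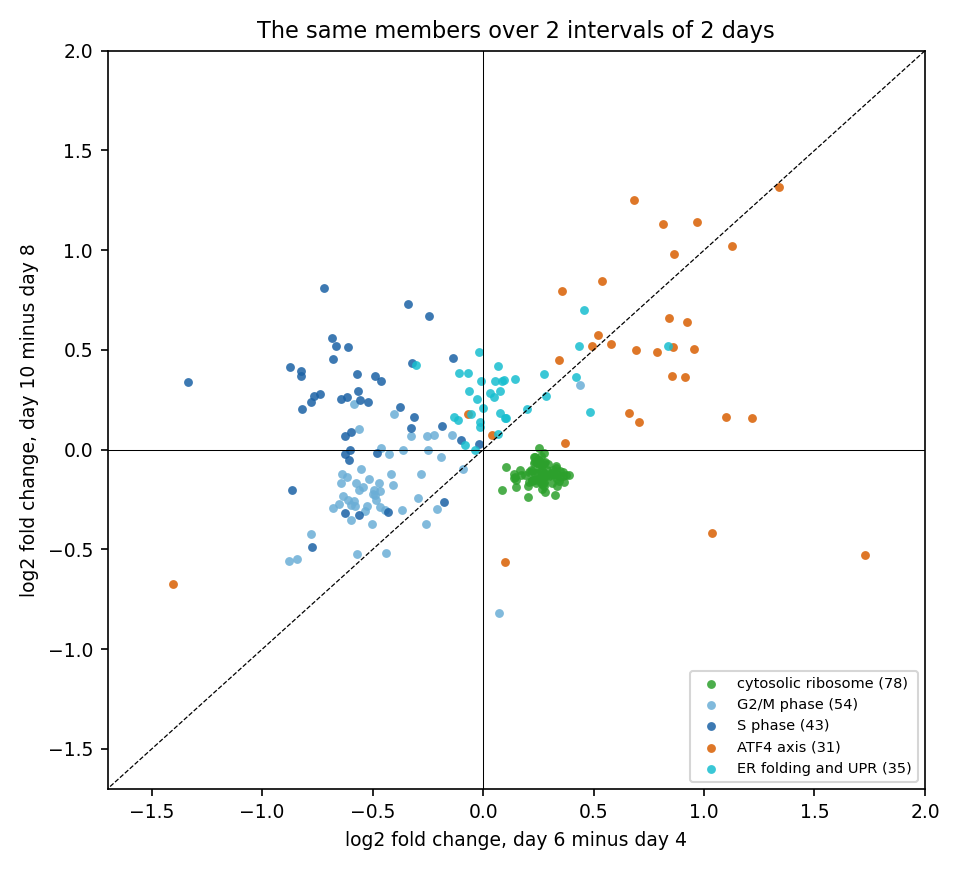
Each point is 1 list member, with the log2 fold change of day 6 minus day 4 on the x axis and of day 10 minus day 8 on the y axis, and the dashed line marks equal change. ATF4 members lie mostly in the upper right, ribosomal proteins form a cluster right of 0 and just below 0, S phase members lie left of 0 and mostly above 0, and members of the unfolded protein response lie mostly above 0 on the y axis.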

How the data were processed

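RNA from 5 subcultures per time point of RPMI-8226 cells was sequenced, and the 5 libraries of day 4 and the 5 of day 6 were compared. The authors' counts are Kallisto 0.44.0 estimates for GENCODE transcripts (build GRCh38.p12), corrected for GC content, and were deposited as whole-number estimated counts per gene symbol and transcript biotype, without scaling for library size. From these, 19665 protein-coding entries were taken, of which 1666 had no count in any library and 17999 were tested.

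All 35 libraries were fitted together with edgeR 4.0.16 in R 4.3.3 (quasi-likelihood test, TMM factors, day as a factor), with adjustment over all transcripts tested. Calls required Q ≤ 0.05 and an absolute log2 fold change above 1, and Q ≤ 0.05 alone for list members. The method was tested on simulated data, on 16453 transcripts, where Q ≤ 0.05 was reached by 99 of the 100 set to a 4-fold change, 64 of the 100 set to 1.5-fold and 11 of the 16253 left alone. The lists and the members were chosen with earlier results of these data known, so a list's direction is a description.

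Transcripts were named by rule, as the 12 largest rises and falls among calls with a mean of at least 1 CPM and no overlap, the 5 lowest p in each direction, the largest rise and fall of each list at Q ≤ 0.05, and a fixed list of stress response genes, 95 in all. Other transcripts named within a list were picked by their role, with values known. Positions came from GENCODE 44 on GRCh38, where 92 of the 95 were matched. Alternatives were RLE factors, no factors, a filter on low counts, DESeq2 1.42.0, a fit of only the 10 libraries, a replicate block, other fold thresholds, each library left out, and, chosen after seeing the data, counts summed over all biotypes of a symbol. No sequencing batch or date was given in the sources used here. Whether replicate numbers mark the same subculture over days is not stated. The values of some single transcripts are not reported here, while the counts over lists and over all transcripts include them.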

Additional observations from a re-analysis of the deposited data

Results flagged for a closer look

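For 56 of the 95 named transcripts the change from day 4 to 6 differed from the change from day 8 to 10 at Q ≤ 0.05 (edgeR quasi-likelihood test of the difference, Benjamini–Hochberg adjustment over all transcripts tested), which 11.3% of all transcripts did. The named transcripts were chosen partly by their change from day 4 to 6, so this count is a description. The values of 53 of the 56 are given. A positive difference means a larger rise or a smaller fall from day 4 to 6. BNIP3, for example, fell by log2 −0.24 from day 4 to 6 and by −0.85 from day 8 to 10. BCL2L11 rose by 0.16 and then fell by −0.35. Among the stress factors and ATF4 group members named, the change from day 4 to 6 minus the change from day 8 to 10 was positive in log2 terms, differing for NUPR1 by 2.26, ATF3 by 1.45, DDIT3 by 0.93 and ATF4 by 0.48. Among metabolic genes and carriers it was also positive, for MT1X by 1.51, SLC2A3 by 1.43, MID1IP1 by 0.84, STARD4 by 0.70, BNIP3 by 0.61, ACSL1 by 0.61, ABCG1 by 0.48 and ASS1 by 0.37. Among survival, immune and surface genes it was positive for CD44 by 0.86, TRAF1 by 0.81, PMAIP1 by 0.78, BCL2L11 by 0.51, HLA-E by 0.43 and IRF4 by 0.37. Among ribosomal protein and histone genes it was positive for HIST1H4E by 1.66, RPL34 by 0.52 and MRPL45 by 0.47. Among the largest rises it was positive for LRRC32 by 2.43, KLHDC8B by 2.37, ZNF404 by 2.20, CACNA1F by 1.99 and AGER by 1.76. The difference was negative, meaning a smaller rise or a larger fall from day 4 to 6, among replication genes for TK1 by −0.66, TIMELESS by −0.996, CDC6 by −1.22, POLE2 by −1.27, MCM5 by −1.29 and UHRF1 by −1.68. Among the amino acid carriers and tRNA synthetases it was negative for FARSA by −0.25, SLC38A5 by −0.39, SLC7A11 by −0.45 and SLC6A9 by −0.50. Among genes of protein folding and degradation it was negative for HSPA5 by −0.26, VCP by −0.29, AHSA1 by −0.34, DNAJC3 by −0.35, PSMD1 by −0.46, UFD1L by −0.75 and AUP1 by −2.78. Among the other named transcripts it was negative for ACLY by −0.25, ERAP2 by −0.29, BCL2L1 by −0.40, MRPS7 by −0.41, ISG20 by −0.41, SDC1 by −0.42, NCAM1 by −0.55, OLFML2B by −1.36, COCH by −1.50 and FOS by −1.88.

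In 8 of 190 sets of 5 libraries, each a named transcript on 1 day, 1 library stood apart from the other 4 by Dixon's test at the 95% level. Chance alone flags about 1 in 20 such sets, and 7 of the 8 are given. NUPR1 on day 4 had its highest level in replicate 2, at 8.83 CPM against 4.17 CPM in the nearest library. HIST1H4E on day 4 had its highest level in replicate 5, at 7.25 CPM against 4.74 CPM in the nearest library. COCH on day 6 had its highest level in replicate 5, at 3.59 CPM against 1.62 CPM in the nearest library. ORC6 on day 4 had its highest level in replicate 1, at 15.3 CPM against 10.6 CPM in the nearest library. ATF3 on day 6 had its lowest level in replicate 4, at 25 CPM against 27.9 CPM in the nearest library. HMOX1 on day 6 had its lowest level in replicate 5, at 5.74 CPM against 10.7 CPM in the nearest library. NFE2L2 on day 6 had its lowest level in replicate 3, at 63.9 CPM against 73.7 CPM in the nearest library. The 8 fell on 6 different libraries, and no library had more than 2 of them.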

How the results depend on the processing

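The total of 113 calls lay between 100 and 118 under other scalings, the filter on low counts, DESeq2, the fit of only 10 libraries, the replicate block and the summed biotypes, and 70 of the 113 were also called with the biotypes summed. It ranged from 91 to 127 with each library left out, with 59 to 84 higher and 23 to 48 lower calls, the lowest without replicate 2 of day 6. A threshold of log2 2 left 30 calls (22 higher, 8 lower), and no fold threshold gave 2172 (1096 higher, 1076 lower). Without scaling factors the calls were 60 higher and 50 lower, and the median of all transcripts moved by −0.06. DESeq2 called 11 transcripts from day 6 to 8, against 23. Left-out libraries gave 32 to 36 lower members for S phase, 42 to 48 for G2/M, 4 to 12 for cholesterol synthesis, and 25 to 26 higher members for the ATF4 axis, 10 to 13 for tRNA synthetases, 56 to 69 for ribosomal proteins and 13 to 15 for histones. The count of transcripts whose changes differed between the intervals ranged from 1729 to 2124. UFD1L turned from a fall to log2 0.0077 with the biotypes summed, since its other entries then count. BCL2L11 and KRT8 no longer passed the Q threshold in most fits with a library left out. The replicate block gave 105 calls and left every named transcript on its side of the Q threshold. Same-numbered libraries correlated at −0.11 to −0.01 in their deviations, and none of the 5 day 4 libraries correlated best with its own number. Subcultures of 1 culture need not differ in a lasting way, so this cannot decide whether the numbers mark the same subculture. Depth limits transcripts near 1 CPM, where a day mean rests on few counts per library.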

Other observations

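Further lists had members that differed between the days, where 6.09% of all transcripts were higher and 5.98% lower at Q ≤ 0.05. Of 27 hypoxia response genes, 8 were higher and 1 was lower, and the higher count fell to 5 without replicate 1 or replicate 3 of day 6, while the lower count fell to 0 in 5 of the 10 fits that left out 1 library. Examples were BHLHE40, a clock and hypoxia repressor, at 68.0 ± 20.8 and 131 ± 26.2 CPM (log2 0.94 ± 0.17, edgeR Q = 0.000118) and BNIP3, a mitophagy receptor, at 79.9 ± 3.30 and 67.5 ± 6.53 CPM. Of 24 glycolysis genes 2 were higher and 5 lower, and SLC2A3, the neuronal-type glucose transporter, rose from 12.1 ± 3.24 to 27.3 ± 3.62 CPM while GAPDH had 2021 ± 158 and 1881 ± 112 CPM (Q = 0.272). TXNIP, an inhibitor of glucose uptake and a target of MondoA, went from 1948 ± 172 to 2474 ± 285 CPM with overlapping libraries (Q = 0.0052). Of 22 NRF2 targets 1 was higher and 5 were lower (8 without replicate 5 of day 4, 9 without scaling factors), and NFE2L2 and HMOX1 did not pass.

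Among 29 immediate-early genes 8 were higher and 1 was lower. FOS fell from 10.7 ± 5.26 to 4.47 ± 2.61 CPM with overlapping libraries (Q = 0.00261) while ATF3 and the zinc finger factor KLF2 rose, the latter from 46.9 ± 4.36 to 78.9 ± 25.1 CPM. Of 24 NF-κB targets 5 were higher and none was lower, with 3 higher without replicate 2 of day 4, without replicate 1 of day 6 or without scaling factors, and with TRAF1 at 195 ± 23.6 and 288 ± 37.4 CPM. Of 38 interferon response genes 2 were lower (5.26%, near the share of all transcripts) and none was higher, with 1 lower without replicate 4 of day 4 and 6 lower without scaling factors. The 13 mitochondrially encoded transcripts had a median log2 fold change of 0.11. Of 27 adhesion and homing genes 6 were higher and 3 lower, and CD44, the hyaluronan receptor, rose from 5.72 ± 1.11 to 10.5 ± 0.255 CPM (log2 0.88 ± 0.17, Q = 0.000357).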
